A study of Mus musculus with 6 samples.

Results

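The 45 genes described here encode the proteins that find and license the origins of DNA replication, open the helix and copy it at the fork, together with enzymes that supply its nucleotides. They were chosen by symbol, and all 45 listed symbols were present among the 14484 genes of the deposited count table. Messenger RNA of mouse skin was sequenced from 3 ATR WT and 3 ATR mD/mD samples. ATR WT mice carried the genotype ATR +/+, Braf CA/+, Cre +. ATR mD/mD mice carried ATR fl/fl, Braf CA/+, Cre +, and in them part of the kinase domain of ATR was removed. All 6 samples therefore had a Braf CA allele and Cre on a C57BL/6-129J background, and the series describes the samples as nevi, benign growths of pigment cells. The labels give neither the promoter that drives Cre, nor the age of the mice, nor whether the samples of a group were separate animals, so p-values cover only the spread between the samples at hand.

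Before S phase the origin recognition complex, Cdc6 and Cdt1 load the MCM2-7 helicase onto DNA, a step called licensing. In S phase Cdc45 and the GINS complex join MCM2-7 to form the active helicase, DNA polymerase alpha with primase starts each new strand, and polymerases delta and epsilon extend the strands with the help of the PCNA clamp. Many of these genes are transcribed as cells enter S phase, a control in which E2F factors take part, so in a whole tissue their RNA tends to go with the share of dividing cells. In skin, dividing cells lie in the basal epidermis and above all in the matrix of growing hair follicles, from which the hair shaft forms. ATR is a kinase that is activated at stalled forks and restrains the firing of further origins.

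Some promoters of these genes hold E2F-type letters, a feature that was not used to choose them. A search of 300 bases around each start (250 before and 50 after) found an E2F-type match in 15 of the 37 members with an entry in the RefSeq promoter table (GRCm38.p6), or 40.5%. The letters searched were TTTGGCGC, TTTCGCGC, TTTCCCGC and TTTGCCGC on both strands. Of all 27025 genes with an entry, 2.6% held a match, and of the 10969 measured genes among them 4.4% did. Median GC content was 61.3% in the members and 61.3% in the measured genes. The 150 bases before the RefSeq start are shown for the 4 members with a match in them whose stretch has at most 2 bases inside the GENCODE gene, 5′ to 3′ along the gene's own strand, with the E2F-type match in capitals.
Orc3: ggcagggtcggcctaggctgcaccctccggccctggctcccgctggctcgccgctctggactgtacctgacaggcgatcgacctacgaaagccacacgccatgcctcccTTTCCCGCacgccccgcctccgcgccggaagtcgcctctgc
Mcm5: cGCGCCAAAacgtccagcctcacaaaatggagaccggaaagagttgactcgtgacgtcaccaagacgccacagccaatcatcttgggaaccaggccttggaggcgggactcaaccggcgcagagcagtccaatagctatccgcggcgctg
Mcm6: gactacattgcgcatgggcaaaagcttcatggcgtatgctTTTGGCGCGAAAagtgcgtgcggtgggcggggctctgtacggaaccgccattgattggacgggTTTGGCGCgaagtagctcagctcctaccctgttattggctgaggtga
Pola1: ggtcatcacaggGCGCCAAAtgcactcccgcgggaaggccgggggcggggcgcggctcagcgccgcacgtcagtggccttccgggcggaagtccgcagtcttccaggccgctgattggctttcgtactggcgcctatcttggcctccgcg
Orc3 (chr4:34614943-34615092, minus strand) encodes a subunit of the origin recognition complex. Mcm5 (chr8:75109359-75109508, plus strand) and Mcm6 (chr1:128359706-128359855, minus strand) encode helicase subunits. The Mcm6 stretch holds 3 matches, of which 2 overlap in the first run of capitals. Pola1 (chrX:93632156-93632305, minus strand) encodes the catalytic subunit of polymerase alpha. Orc1, Rfc3, Gins3 and Cdc6 also had a match in this stretch, but 31, 34, 106 and 150 of the 150 bases lie inside the GENCODE gene. RefSeq and GENCODE place starts differently for Orc3, Mcm5 and Mcm6 among the shown members as well. The GENCODE start of Orc3 (34614944) leaves 2 bases of its stretch inside the gene. The GENCODE starts of Mcm5 (75109569) and Mcm6 (128359664) lie downstream of the end of the stretch. The other members with a match in the wider window were Cdt1, Mcm3, Mcm7, Pold1, Pold3, Pole2 and Lig1. The 5 letters CCAAT, searched on both strands, were present in 62.2% of the members, 41.1% of all genes of the table and 88.2% of 17 mitosis genes. Of those mitosis genes 5.9% held an E2F-type match, and 0 of 23 hair follicle genes did. Gins1, Gins2, Gins4, Gmnn, Mcm4, Pole, Prim2 and Rfc2 had no entry in the table. A match is a description of the letters, not evidence that a factor binds.

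Gene counts summed to between 34723600 and 46847751 per library. The libraries differed widely in 34 hair follicle and hair shaft genes, and these did not separate the genotypes. CPM denotes counts scaled to a common library total with TMM factors. The mean hair gene level was 2.15, 6.94 and 7.12 log2 CPM for ATR WT 1 to 3 and 0.26, 2.32 and 7.20 for ATR mD/mD 1 to 3, so the libraries of high hair level were the second and the third ATR WT and the third ATR mD/mD library. Xist counts, at 37, 23005 and 29207 for ATR WT and 18050, 40 and 23 for ATR mD/mD, show that sex-linked transcripts were uneven too. Each group held libraries of high and of low Xist counts, so the samples of a group were not all from 1 animal. Markers of the labelled tissue were present, with summed levels of 7127 to 9817 CPM for 6 basal keratinocyte genes and 134 to 869 CPM for 8 melanocyte genes. Genes of other cell types were high too, at 7066 to 17560 CPM for 6 fibroblast genes and 5426 to 24320 CPM for 6 skeletal muscle genes. Atr had 17.7, 24.5 and 24.2 CPM in ATR WT and 20.8, 22.2 and 24.8 CPM in ATR mD/mD. Whole-gene counts include exons outside the deleted part and do not check the deletion.

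The replication genes stood higher in 1 library, ATR mD/mD 3, than in the 5 others. Their mean level was 4.43, 4.59 and 4.39 log2 CPM for ATR WT 1 to 3 and 4.31, 4.35 and 5.03 for ATR mD/mD 1 to 3. Of the 45 genes 41 had their highest value in ATR mD/mD 3, while 27.5% of all genes did. The 4 others were Orc3, Orc4, Orc5 and Rpa1. This library was singled out after its values were seen. Counted against single groups, 42 of 45 were above both other ATR mD/mD libraries (43.9% of all genes) and 42 of 45 were above both ATR WT libraries of similar hair level (38.6% of all genes). The median member was 1.57-fold the mean of ATR mD/mD 1 and 2 and 1.40-fold the mean of ATR WT 2 and 3, where the median gene of the table was at 0.998-fold and 0.985-fold. ATR WT 2 and 3 had high Xist counts (23005 and 29207) and ATR mD/mD 3 a low one (23). The comparison at similar hair level therefore also differed in sex-linked transcripts. In bulk RNA a larger share of cells in S phase and more RNA per cell cannot be told apart.

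**Figure D1:**
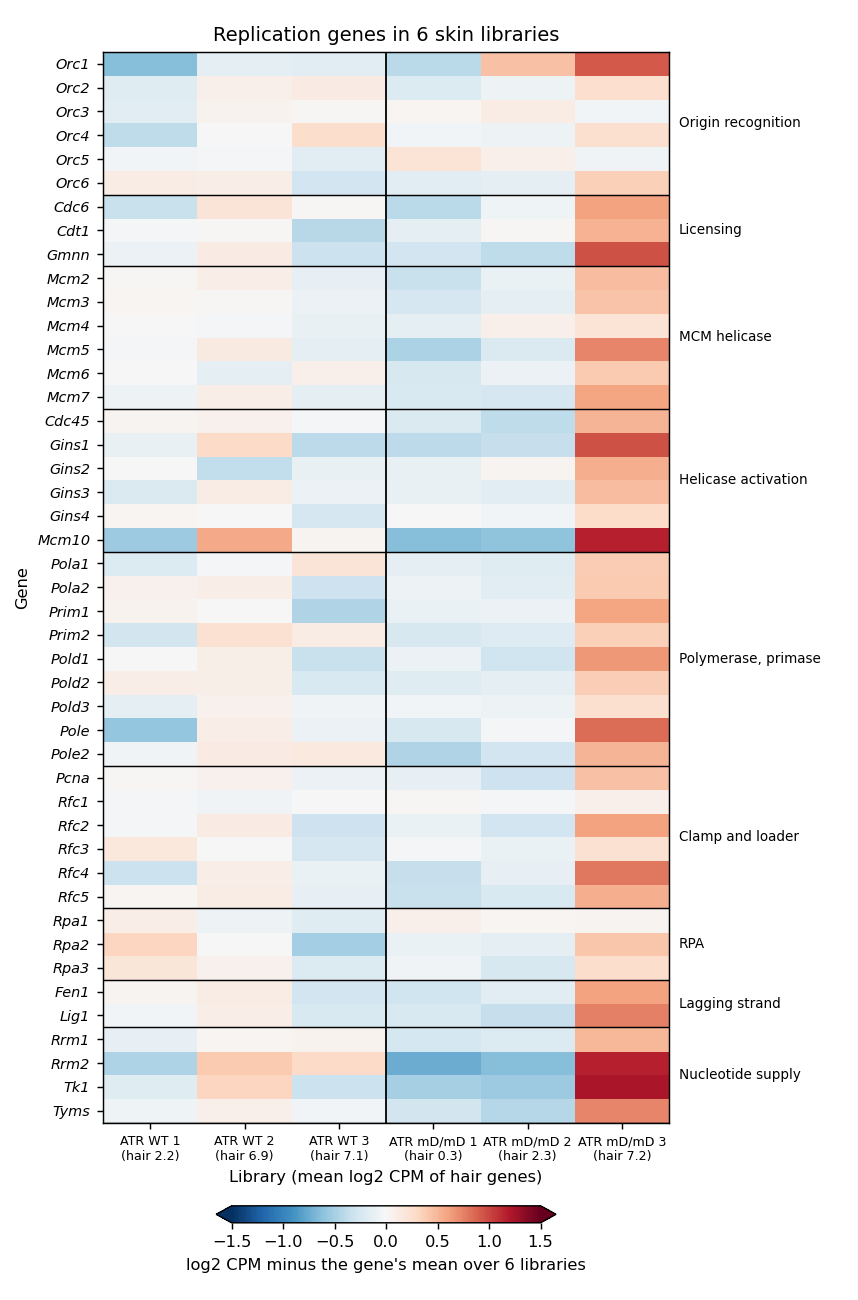
Level of each of the 45 replication genes (rows, grouped by role) in each of the 6 libraries (columns), as log2 CPM minus the gene's mean over the 6 libraries; red is above the mean and blue below, and the hair gene level of each library stands under its name. The column of ATR mD/mD 3 is the highest for 41 of the 45 genes, while ATR WT 2 and ATR WT 3, with a similar hair level, are highest for 0 and 1 of them.

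The origin recognition complex binds origins and was the role group whose mean level varied least between libraries. Its mean level was 3.92, 4.14 and 4.10 log2 CPM for ATR WT and 4.04, 4.19 and 4.41 for ATR mD/mD. Orc1 (chromosome 4, 108579423 to 108614833, plus strand, mm10) was the exception. It had 1.63, 2.30 and 2.27 CPM in ATR WT and 1.92, 3.45 and 4.81 CPM in ATR mD/mD, from 59 to 168 counts per library. Its groups overlapped only through ATR mD/mD 1, and its log2 fold change of 0.71 (SE 0.385) was the largest of the 45, with an adjusted p of 0.9999 in edgeR's quasi-likelihood test. Orc5 had 20.1, 20.3 and 18.6 CPM in ATR WT and 23.9, 21.8 and 20.0 CPM in ATR mD/mD. Here ATR mD/mD 3 was the lowest of its group, and the fitted log2 difference was 0.16 (SE 0.132, edgeR adjusted p = 0.9999). In Orc3, too, ATR mD/mD 3 was the lowest of its group, at 0.926-fold the mean of the 2 others. Orc2, Orc4 and Orc6 stood at 1.31-fold, 1.23-fold and 1.42-fold in the same ratio. Their counts are uncertain, since Orc2 shares exon bases with Nif3l1, Orc4 with Mbd5 and Acvr2a, and Orc6 with Vps35.

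The licensing genes differed more. Gmnn encodes geminin, the protein that blocks Cdt1 once S phase has begun and so prevents a second round of licensing. It had 15.1, 17.4 and 12.8 CPM in ATR WT and 13.2, 12.3 and 31.1 CPM in ATR mD/mD. ATR mD/mD 3 was 2.45-fold the mean of the 2 other mutant libraries, which lay within or below the ATR WT range. Cdt1, the loading factor that geminin binds, had 19.1, 19.4 and 14.5 CPM in ATR WT and 17.5, 19.5 and 27.7 CPM in ATR mD/mD. Its log2 fold change was 0.29 (SE 0.223), against 0.32 (SE 0.383) for Gmnn, both with an adjusted p of 0.9999 (edgeR). Cdc6 stood at 1.78-fold in ATR mD/mD 3 over the mean of the 2 other mutant libraries.

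All 6 genes of the MCM2-7 ring, which unwinds DNA ahead of the polymerases, were highest in ATR mD/mD 3. The ring holds 1 copy of each subunit. Mcm5 differed most, with 44.3, 49.8 and 41.2 CPM in ATR WT and 32.5, 39.1 and 75.3 CPM in ATR mD/mD. ATR mD/mD 1 and 2 lay below all 3 ATR WT libraries and ATR mD/mD 3 above them. Mcm7 was placed likewise, with 64.6, 73.2 and 62.2 CPM against 58.1, 57.5 and 102.9 CPM. Mcm4 differed least, with 46.9, 45.9 and 43.5 CPM against 42.4, 49.5 and 54.2 CPM. The 6 genes thus did not keep a fixed ratio between libraries: ATR mD/mD 3 over the mean of the 2 other mutant libraries was 1.59, 1.53, 1.18, 2.10, 1.47 and 1.78 for Mcm2 to Mcm7. The log2 fold changes between genotypes were 0.12 (SE 0.317) for Mcm5, 0.13 (SE 0.249) for Mcm7 and 0.10 (SE 0.129) for Mcm4, each with an adjusted p of 0.9999 (edgeR). Reads of Mcm7 may include those of Cops6 and Ap4m1, whose exons overlap it.

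Among the factors that turn the loaded helicase on, Mcm10 (chromosome 2, 4989714 to 5012791, minus strand), which binds the helicase as it starts to unwind, varied most. It had 3.92, 8.44 and 5.85 CPM in ATR WT and 3.66, 3.76 and 12.8 CPM in ATR mD/mD. The 3 libraries of high hair level were the 3 highest, and ATR mD/mD 3 was 3.46-fold the mean of the 2 other mutant libraries. Cdc45, the partner of GINS in the active helicase, had 13.3, 13.4 and 12.8 CPM in ATR WT and 11.1, 9.93 and 18.3 CPM in ATR mD/mD. ATR mD/mD 1 and 2 lay below ATR WT and ATR mD/mD 3 above, and the log2 fold change was -0.0029 (SE 0.256). The 4 GINS subunits did not move alike: Gins1 stood at 2.50-fold in ATR mD/mD 3 over the mean of the 2 other mutant libraries, Gins2 at 1.49-fold, Gins3 at 1.52-fold and Gins4 at 1.23-fold. Gins2 had 8.82, 6.76 and 8.11 CPM in ATR WT and 8.09, 9.04 and 12.8 CPM in ATR mD/mD, a log2 fold change of 0.34 (SE 0.238, with edgeR adjusted p = 0.9999). Its exons overlap those of Gse1, so its count is uncertain. Gins4 had 25.2, 24.7 and 20.8 CPM against 24.7, 23.9 and 29.9 CPM, a log2 fold change of 0.15 (SE 0.151, with edgeR adjusted p = 0.9999).

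All 9 polymerase and primase genes were highest in ATR mD/mD 3. Pole, the catalytic subunit of the leading-strand polymerase epsilon, had 8.49, 13.5 and 11.95 CPM in ATR WT and 10.7, 12.4 and 22.5 CPM in ATR mD/mD. ATR WT 1 was the lowest library and the fitted log2 difference was 0.43 (SE 0.333, edgeR adjusted p = 0.9999). Pole2, its second subunit, had 7.56, 8.56 and 8.70 CPM in ATR WT and 5.75, 6.42 and 11.1 CPM in ATR mD/mD, and its log2 fold change of -0.09 (SE 0.290, edgeR adjusted p = 0.9999) was the lowest of the 45. Prim1, the primase subunit that makes the RNA primer, had 25.8, 24.6 and 18.0 CPM in ATR WT and 23.1, 23.3 and 37.2 CPM in ATR mD/mD, a log2 fold change of 0.29 (SE 0.245, with edgeR adjusted p = 0.9999). Pola1, the catalytic subunit of polymerase alpha, is the X-linked member. It had 11.5, 13.0 and 15.2 CPM in ATR WT and 11.95, 11.7 and 17.2 CPM in ATR mD/mD, an order that did not follow the Xist counts.

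Pcna (chromosome 2, 132249162 to 132253314, minus strand) encodes the sliding clamp that tethers the polymerases, and it had the highest level per length of the 45. It had 148, 154 and 138 CPM in ATR WT and 135, 118 and 199 CPM in ATR mD/mD. ATR mD/mD 3 was 1.57-fold the mean of the 2 other mutant libraries, which lay below all 3 ATR WT libraries. Reads of the pseudogenes Pcna-ps1 and Pcna-ps2 may be counted with it. The clamp loader pairs a large subunit, Rfc1, with 4 small ones. Rfc1 was the steadiest of the 45 genes, with 56.8, 55.8 and 58.5 CPM in ATR WT and 58.9, 57.0 and 61.3 CPM in ATR mD/mD. Rfc4 had 10.1, 13.6 and 11.8 CPM in ATR WT and 9.95, 11.6 and 21.8 CPM in ATR mD/mD, and Rfc2 had 44.0, 49.1 and 36.4 CPM against 41.8, 37.0 and 68.1 CPM. In both, ATR mD/mD 3 lay above every ATR WT library. The log2 fold changes were 0.29 (SE 0.324) for Rfc4 and 0.18 (SE 0.256) for Rfc2, with an adjusted p of 0.9999 for each (edgeR). Rfc4, Rfc2 and Rfc5 share exon bases with Eif4a2, Lat2 and Wsb2.

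The RPA genes encode the trimer that coats single-stranded DNA, the platform on which ATR is recruited. Rpa1, its large subunit, had 86.9, 77.0 and 71.4 CPM in ATR WT and 85.0, 82.8 and 83.6 CPM in ATR mD/mD, so ATR mD/mD 3 did not stand out in its group (0.996-fold the mean of the 2 others). Rpa2, which ATR phosphorylates, had 47.0, 37.4 and 26.3 CPM against 34.9, 34.1 and 50.1 CPM and was uneven within both groups. The log2 fold changes were 0.10 (SE 0.119) for Rpa1 and 0.11 (SE 0.258) for Rpa2, each with an adjusted p of 0.9999 (edgeR). The 3 RPA genes were at 0.678-fold to 0.853-fold in ATR WT 2 and 3 relative to ATR WT 1, against the direction of the hair level.

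Fen1 cuts the flap at the end of an Okazaki fragment and Lig1 seals the nick. Lig1 had 38.2, 42.1 and 33.5 CPM in ATR WT and 33.6, 31.0 and 66.4 CPM in ATR mD/mD. Fen1 had 31.8, 33.4 and 25.3 CPM against 25.1, 27.3 and 46.7 CPM. ATR mD/mD 3 was 2.06-fold and 1.78-fold the mean of the 2 other mutant libraries. The log2 fold changes between genotypes were 0.20 (SE 0.309) for Lig1 and 0.13 (SE 0.267) for Fen1, each with an adjusted p of 0.9999 (edgeR). Fen1 exons overlap those of Tmem258, so its count is uncertain.

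The nucleotide supply genes differed most between libraries, with a mean level of 4.93, 5.34 and 5.13 log2 CPM for ATR WT and 4.69, 4.68 and 6.04 for ATR mD/mD. Rrm2 (chromosome 12, 24708241 to 24714146, plus strand) is the subunit of ribonucleotide reductase made for S phase. It had 19.5, 35.3 and 32.9 CPM in ATR WT and 16.0, 17.2 and 60.5 CPM in ATR mD/mD, the largest range of the 45 genes at 1.91 on the log2 scale. Its 3 highest libraries were the 3 of high hair level. Its partner Rrm1 had the same 3 highest libraries over a smaller range, with ATR mD/mD 3 at 1.66-fold the mean of the 2 other mutant libraries against 3.64-fold for Rrm2. Tk1 (chromosome 11, 117815526 to 117826092, minus strand), the thymidine salvage kinase of S phase, had 18.8, 26.5 and 17.0 CPM in ATR WT and 15.0, 14.6 and 49.8 CPM in ATR mD/mD. Tyms, which makes thymidylate anew, had 37.3, 41.0 and 37.9 CPM against 32.1, 29.0 and 64.6 CPM. In all 4 genes ATR mD/mD 1 and 2 lay below every ATR WT library and ATR mD/mD 3 above. The log2 fold changes were 0.10 (SE 0.556) for Rrm2, 0.35 (SE 0.512) for Tk1 and 0.11 (SE 0.312) for Tyms, each with an adjusted p of 0.9999 (edgeR). Tk1 shares exon bases with Afmid, and a pseudogene, Tyms-ps, makes the Tyms count uncertain.

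**Figure D2:**
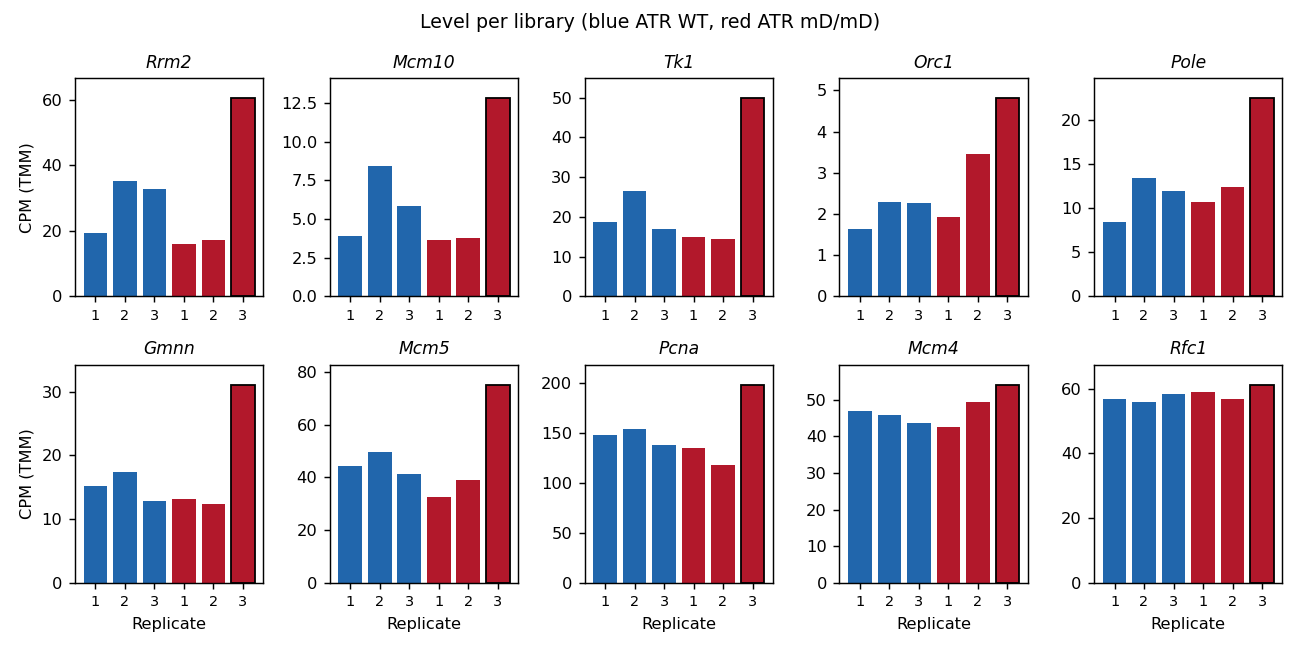
Level in CPM after TMM scaling (vertical axes, each from 0) of 10 replication genes in the 6 libraries, 1 bar per library, with ATR WT in blue, ATR mD/mD in red and ATR mD/mD 3 outlined. Rrm2, Mcm10 and Tk1 differ by more than 3-fold between ATR mD/mD 3 and the 2 other mutant libraries, while Mcm4 and Rfc1 are nearly level.

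Levels can be compared between genes only per length. Per kilobase of the principal transcript, Pcna had 97.9 CPM averaged over the 6 libraries, Rpa3 26.1 and Mcm7 23.6, the 3 highest. The 6 genes of the MCM ring, in the order Mcm2 to Mcm7, lay at 10.1, 14.9, 13.1, 13.9, 17.9 and 23.6 CPM per kilobase. The lowest were Orc1 at 0.906, Mcm10 at 1.32 and Pole at 1.85. Pole was thus below its second subunit Pole2 at 4.70, and Pola1 at 2.51 was below Pola2 at 10.9. With the length of all annotated exons in place of the principal transcript, Pcna had rank 1, Mcm7 rank 3, Mcm10 rank 44 and Orc1 rank 45 again, but Tk1 moved from rank 10 to rank 31 and Rrm1 from 8 to 24. Near the top, Rpa3 moved from rank 2 to 4 and Gins4 from 6 to 2. Within the MCM ring, Mcm4 moved from rank 20 to 7 and Mcm6 from 7 to 13. Much of the order below Pcna, with that of the MCM ring, therefore depends on the length used.

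**Figure D3:**
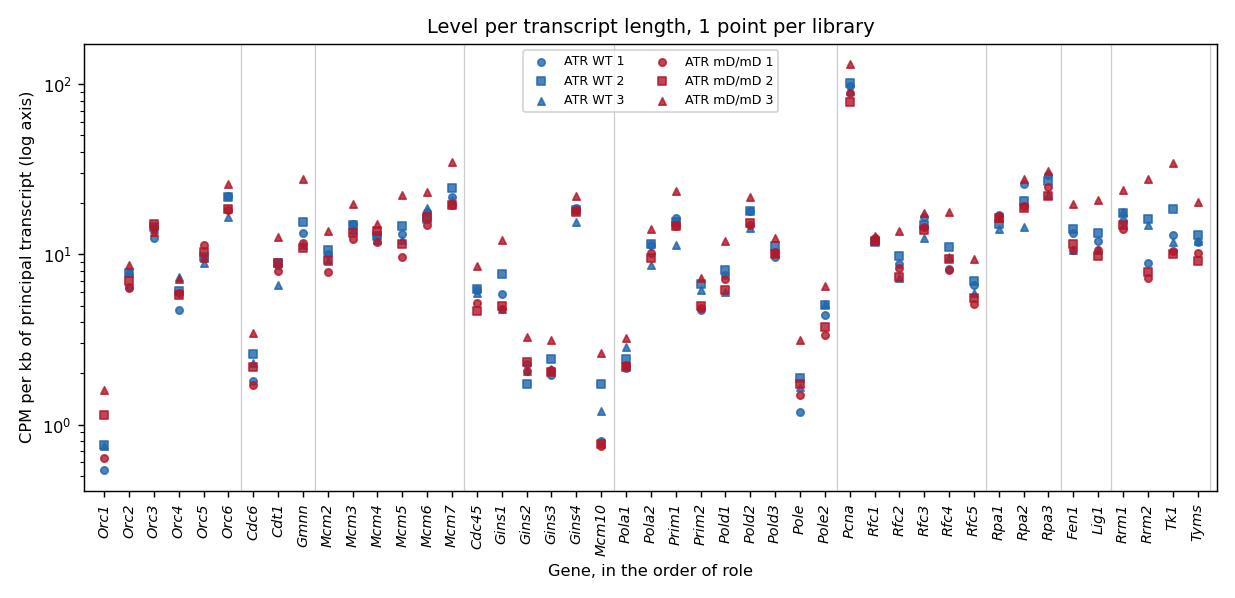
Level per kilobase of the principal transcript (vertical axis, CPM per kb, log scale) of each of the 45 replication genes (horizontal axis, in order of role), 1 point per library. Pcna lies far above the rest at a mean of 97.9, Orc1 lowest at 0.906, and the red triangles of ATR mD/mD 3 stand at the top for 41 genes.

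Set in the order of hair level, the libraries did not give one order for the replication genes. Of the 45 genes 12 were higher in all 3 libraries of high hair level than in the 3 others (19.6% of all genes were), namely Orc2, Orc4, Cdc6, Gins3, Mcm10, Pola1, Prim2, Pole2, Rfc4, Rrm1, Rrm2 and Tyms. With library totals alone as the scale 21 of 45 were (22.6% of all genes). Within ATR WT, 16 of 45 were higher in both ATR WT 2 and ATR WT 3 than in ATR WT 1 (45.3% of all genes), and the median member stood at 0.991-fold. Between those libraries the median hair gene differed 39.0-fold and the median of 20 mitosis genes, such as cyclins and spindle factors, 1.84-fold. Within ATR mD/mD the hair genes differed 92.0-fold, the mitosis genes 3.54-fold and the replication genes 1.57-fold between ATR mD/mD 3 and the mean of the 2 others. With TMM scaling the replication genes as a set thus stood apart in the hair-rich mutant library but not in the hair-rich ATR WT libraries. TMM factors were 0.923 for ATR WT 1 and 1.03 and 1.04 for ATR WT 2 and 3, so the ATR WT part depends on the scale. Only 1 ATR mD/mD library had a high hair level, and its Xist count was low where those of ATR WT 2 and 3 were high. The genotype, the sex-linked transcripts and that library therefore cannot be told apart at high hair level, and no test was made.

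**Figure D4:**
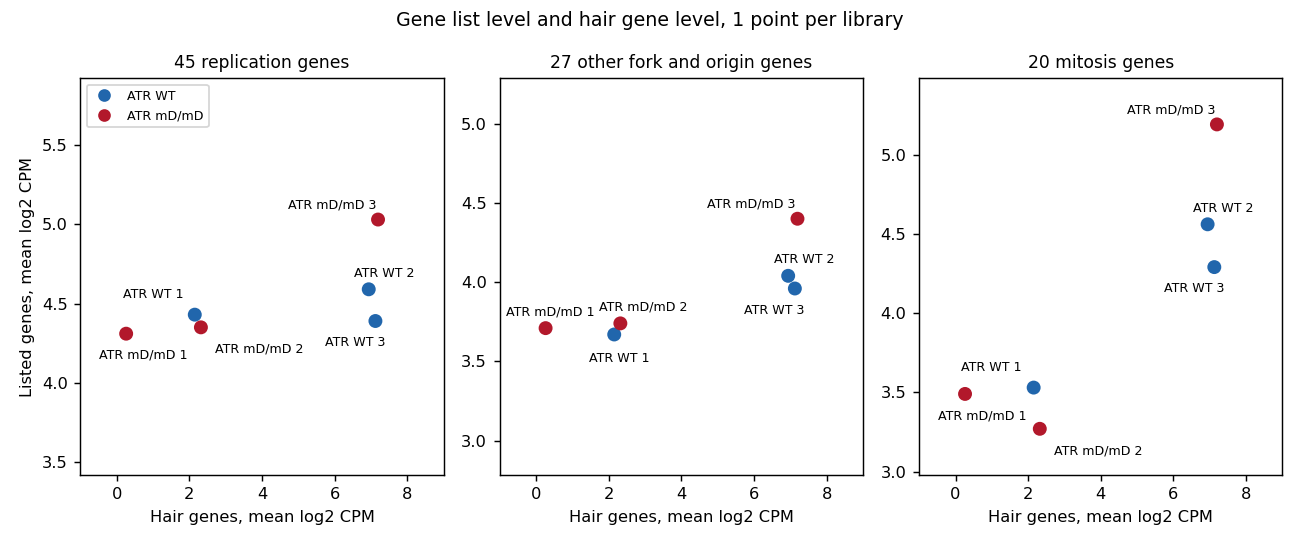
Mean level of 3 gene lists (vertical axes, mean log2 CPM, all spanning the same range) against the mean level of 34 hair genes (horizontal axis, mean log2 CPM), 1 point per library, ATR WT in blue and ATR mD/mD in red. In the left panel ATR mD/mD 3 lies at 5.03 and the 5 other libraries between 4.31 and 4.59, while in the right panel all 3 libraries of high hair level lie above the 3 others.

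Other gene groups also differed in ATR mD/mD 3. All 20 mitosis genes were highest there (27.5% of all genes were), with a list mean of 3.53, 4.56 and 4.29 log2 CPM for ATR WT and 3.49, 3.27 and 5.19 for ATR mD/mD. The 8 melanocyte genes had a mean of 3.97, 6.17 and 5.59 log2 CPM against 3.24, 3.40 and 6.02, highest in the 3 libraries of high hair level. Of the 8 genes, 7 were higher in all 3 of these libraries than in the 3 others (19.6% of all genes were). Sox10 was not, with 31.3, 43.8 and 35.0 CPM against 17.6, 20.9 and 23.6 CPM. Its genotype groups did not overlap (4.84% of all genes had groups that did not). The edgeR unadjusted p of Sox10 was 0.0033 and its edgeR adjusted p 0.9999. At an adjusted p under 0.05 DESeq2 called 1 of the 8 melanocyte genes, and 39 of all 14484 genes. Of the 6 libraries, ATR mD/mD 3 had the lowest mean level of 4 other marker lists. Skeletal muscle genes stood at 11.5, 10.2 and 9.59 log2 CPM against 10.8, 11.1 and 9.38, and T cell genes at 3.64, 3.23 and 3.20 against 3.55, 3.18 and 2.63. Adipocyte genes stood at 8.26, 8.25 and 7.96 log2 CPM against 8.77, 8.49 and 7.62, and endothelial genes at 5.43, 5.11 and 5.12 against 5.31, 5.56 and 4.89. The part of these cell types in the level of the replication genes was not tested.

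Between genotypes, 0 of the 45 replication genes passed an adjusted p under 0.05 in edgeR's quasi-likelihood test, where 7 of 14484 genes did (0.0483%). DESeq2 and limma-voom also called 0 of them. At an unadjusted p under 0.05 edgeR found 0 of 45, against 1.66% of all genes, and the smallest unadjusted p was 0.109, for Orc1. The genotype groups overlapped in all 45 (4.84% of all genes had groups that did not), and with library totals alone as the scale they did not overlap in 1 of 45 (4.09% of all genes). The fitted difference was above 0 for 40 genes and below 0 for 5, and the median log2 fold change was 0.11, against 0.01 over all genes. The sign of the median rested on 1 library. Without ATR mD/mD 3 the median was -0.15, with 34 genes below 0 and 11 above, and again 0 passed the adjusted threshold. Orc1 was among the 11, at 0.38. In this fit both mutant libraries had a low hair level (0.26 and 2.32 log2 CPM), while ATR WT 2 and 3 had a high one (6.94 and 7.12). The median log2 fold change of the 34 hair genes was -5.70, so genotype and hair level cannot be told apart here. Rrm2 at -0.82 (edgeR unadjusted p = 0.0304) and Tyms at -0.34 (edgeR unadjusted p = 0.0321) were the 2 under an unadjusted 0.05, a level that 7.01% of all genes reached in that fit.

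Leaving out ATR mD/mD 3 separated the genotypes in 13 of 45 genes, against 22.1% of all genes. Of these, 12 were higher in all 3 ATR WT libraries than in both ATR mD/mD 1 and 2 (11.7% of all genes), namely Mcm3, Mcm5, Mcm7, Cdc45, Mcm10, Pole2, Pcna, Rfc5 and the 4 nucleotide supply genes. Both mutant libraries left had a low hair level, so these counts do not tell genotype from hair level. With the hair level as a covariate in edgeR all 45 differences were above 0, with a median of 0.19. In that fit 0 passed the adjusted threshold (lowest edgeR adjusted p = 0.831). Orc1 at 0.96 (unadjusted p = 0.00944), Pole at 0.68 (unadjusted p = 0.00386) and Rfc4 at 0.49 (unadjusted p = 0.0356) were the 3 under an unadjusted 0.05 in this edgeR fit, which 4.66% of all genes were. In the covariate fit ATR mD/mD 3 was the only mutant library of high hair level, so the fit leans on it. At low hair level the mean level of the 45 genes was 4.43 log2 CPM in ATR WT 1. It was 4.31 and 4.35 in ATR mD/mD 1 and 2. The sign of the median difference thus changed with ATR mD/mD 3 present or absent, and none of these 3 fits called a member.

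**Figure D5:**
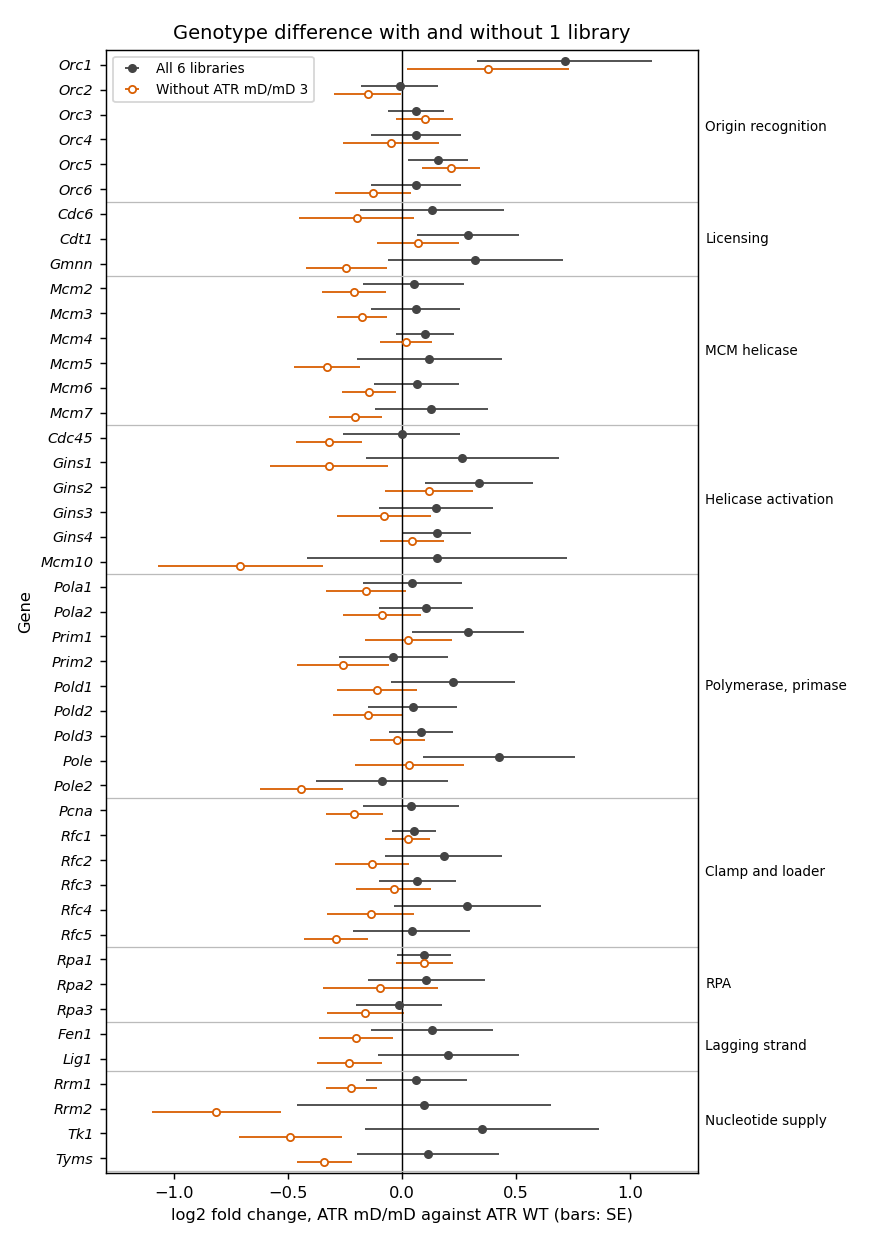
log2 fold change of ATR mD/mD against ATR WT (horizontal axis) of the 45 replication genes (vertical axis, grouped by role) from all 6 libraries (filled points) and without ATR mD/mD 3 (open points), with bars of 1 SE. The median moves from 0.11 to -0.15, and Rrm2, Mcm10 and Tk1 move furthest.

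Fork and origin genes outside the 45 gave similar counts. Of 27 such genes, from factors that fire origins to fork protection proteins, 0 passed the adjusted threshold in edgeR, DESeq2 or limma-voom. At an unadjusted edgeR p under 0.05 there were 0, against 1.66% of all genes. The fitted difference of the 27 was above 0 for 24 and below 0 for 3, and 22 were highest in ATR mD/mD 3 (27.5% of all genes were). Without that library 6 were above 0 and 21 below, and the median log2 fold change went from 0.12 to -0.12. Dbf4, the activator of the Cdc7 kinase that fires origins, had 7.56, 16.2 and 16.4 CPM in ATR WT and 8.06, 6.86 and 27.6 CPM in ATR mD/mD, with the 3 libraries of high hair level highest. Dscc1, part of an alternative clamp loader, had 1.99, 3.01 and 2.23 CPM against 2.32, 2.77 and 4.61 CPM. Pold4 went the other way, with 5.07, 4.74 and 5.18 CPM against 4.35, 3.91 and 3.75 CPM, and was lowest in ATR mD/mD 3. Its log2 fold change was -0.32 (SE 0.199, edgeR adjusted p = 0.9999). It was the 1 gene of the 27 whose genotype groups did not overlap (4.84% of all genes). Of 19 chromatin assembly and nucleotide genes 14 were highest in ATR mD/mD 3 (27.5% of all genes were). Among them was the histone chaperone subunit Chaf1b, with 12.7, 13.1 and 11.5 CPM against 10.2, 10.4 and 25.9 CPM. So was Ctps, with 24.95, 71.3 and 74.0 CPM against 21.9, 27.2 and 81.3 CPM. Tk2 was not, with 34.8, 35.6 and 30.5 CPM against 42.9, 38.3 and 35.7 CPM. It was the 1 gene of the 19 whose genotype groups did not overlap (4.84% of all genes). Of 23 genes of the E2F family and of the entry into S phase, 14 were highest in ATR mD/mD 3 (27.5% of all genes were). Ccna2 was among them, with 8.93, 23.7 and 21.4 CPM against 10.95, 8.48 and 35.2 CPM. Ccnd1 had 137, 169 and 127 CPM against 93.1, 111 and 133 CPM, a log2 fold change of -0.36 (SE 0.186, edgeR adjusted p = 0.9999). Ccnd3 was lowest in ATR mD/mD 3, with 59.9, 55.15 and 50.4 CPM against 48.6, 60.6 and 33.8 CPM. Members of the 45 with an E2F-type match in the promoter stood at a median of 1.53-fold in ATR mD/mD 3 over the mean of the 2 other mutant libraries (15 genes), and those without one at 1.58-fold (22 genes).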

How the data were processed

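Skin messenger RNA of 3 ATR WT and 3 ATR mD/mD samples was sequenced. Libraries were made with an unstranded kit (TruSeq RNA v2, per the labels' protocols), so the counts do not separate a gene from antisense or overlapping transcripts. Per the submitters' processing notes, FastQC, TopHat2 2.0.12, edgeR and the build mm10 were used. The read counter, the annotation and any low-count filter: not given in the sources used here. Per the file headers, the deposited values are raw whole-number counts, 1 column per library. The deposited table also holds the authors' log2 fold change, average log2 CPM, p-value and adjusted p-value per gene, per the file headers. By the authors' deposited table, 0 members had an adjusted p under 0.05, and the lowest p was 0.166.

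The 2 rows naming no gene (4.93% to 5.72% of counts) were left out. TMM factors ran from 0.923 to 1.04, and counts were tested with edgeR 4.0.16 (R 4.3.3) by the quasi-likelihood test without covariates, adjusted by Benjamini-Hochberg over 14484 genes. Each SE was derived from the log2 fold change and its F statistic. Libraries of a group were not copies of each other (chi-square per degree of freedom of 55.3 or more). Positions and lengths came from GENCODE of the same build, and promoters from RefSeq. Alternatives were DESeq2 1.42.0, limma-voom (limma 3.58.1), RLE size factors, other filters and a relaxed threshold, covariates for hair and Y-linked genes, a replicate block, and each library left out. The members and lists were chosen with earlier results of these data known. Values in every library were given for the 2 members of each role with the smallest p and the 1 of largest range; those of Cdc45, Pola1, Pole2, Pcna and Rfc1 were added after they were seen. The code was tested on simulated data.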

Additional observations from a re-analysis of the deposited data

How the results depend on the processing

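No replication gene was called under any alternative, with adjusted p-values of 0.708 or more, and ATR mD/mD 3 was highest for 41 genes with RLE size factors and 40 with library totals. The median log2 fold change of the members ranged from -0.151 to 0.204 when 1 library was left out, and the lowest value, the only one below 0, came without ATR mD/mD 3. Over all genes 7 were called, against 39 with DESeq2, 11 with the hair covariate, 4 with the Y-linked covariate and 4 to 10 with a library left out. Genotype groups did not overlap for 1 member with library totals alone, and for 0 to 13 with a library left out (8.33% to 22.1% of all genes). The 13, or 28.9% of the members, came without ATR mD/mD 3, where 22.1% of all genes did so. With library totals alone 21 members were higher in the 3 libraries of high hair level. Of 21 members named by the rule 9 kept their sign throughout and 12 turned without ATR mD/mD 3. Of the 9, 7 came closer to 0 without it (Mcm4 0.016, Prim1 0.027, Pole 0.030, Gins4 0.044, Cdt1 0.069, Gins2 0.12, Orc1 0.38), and Orc5 (0.22) and Rpa1 (0.098) did not. With a library left out the log2 fold change ranged from -0.204 to 0.295 for Fen1, -0.246 to 0.553 for Gmnn, -0.232 to 0.399 for Lig1, -0.711 to 0.464 for Mcm10, -0.332 to 0.344 for Mcm5, -0.206 to 0.272 for Mcm7, -0.131 to 0.349 for Rfc2, -0.138 to 0.496 for Rfc4, -0.102 to 0.329 for Rpa2, -0.815 to 0.411 for Rrm2, -0.491 to 0.643 for Tk1 and -0.342 to 0.321 for Tyms. The Y-linked covariate turned Fen1 (-0.014), Mcm5 (-0.070), Rpa2 (-0.024) and Rrm2 (-0.065), and limma-voom turned Mcm10 (-0.073) and Rrm2 (-0.18). The cause was not tested.

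The labels do not pair the replicate numbers, and same-numbered samples deviated together with r of 0.633, -0.509 and 0.573. With a replicate block 6 genes and 0 members were called, the member median was 0.076, and Mcm10 (-0.041) and Rrm2 (-0.15) turned.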
